A study of Rattus norvegicus with 99 samples.

Results

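The transcripts of 10 heat shock chaperone genes were followed in the ventricles of rats with pressure overload: the small heat shock protein genes Hspb1, Hspb6, Hspb7 and Cryab, the co-chaperone gene Bag3, and Dnajb1, Hsph1, Hspa8, Hsp90aa1 and Hspa5, which encode members of the Hsp40, Hsp110, Hsp70 and Hsp90 families. The genes were taken by symbol from the deposited table, and all 10 were present among the 17337 genes of the table. Tissue pieces of the left ventricle (LV), septum (Spt) and right ventricle (RV) were taken from 33 male rats, which gave 99 poly(A)-selected RNA libraries in 21 groups of condition and chamber. All animals were F1 offspring of female Wistar Kyoto and male Lewis rats. A clip placed around the aorta (aortic banding, AOB) loads the LV and a clip around the pulmonary artery (pulmonary artery banding, PAB) loads the RV. The clips did not constrict when placed and became constricting as the animals grew. At the hypertrophy stage, at an age of 11 weeks and 7 weeks after surgery by the labels, there were 7 animals each of Sham-H (sham surgery), PAB-H and AOB-H. At the failure stage there were 3 PAB-F and 2 Sham-RF animals, at 27 weeks of age and 21 weeks after surgery, and 4 AOB-F and 3 Sham-LF animals, at 30 weeks of age and 24 weeks after surgery. Each failure group was therefore compared with a sham group of its own age, and stage and age went together. These ages and times are those of the labels. They conflict with the ages in the study's own account, and they put surgery at a younger age in the hypertrophy groups than in the failure groups, so the ages are uncertain.

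Small heat shock proteins are ATP-independent chaperones that hold unfolding proteins, in cardiomyocytes largely at the sarcomere and the desmin network. Hsp70 proteins, with Hsp40 proteins as activators of their ATPase and Hsp110 proteins as nucleotide exchange factors, refold such clients, and Hsp90 completes the folding of kinases and receptors. BAG3 joins small heat shock proteins to Hsp70 and carries damaged sarcomere proteins to autophagy, and mutations in BAG3 and CRYAB cause cardiomyopathy. Acute proteotoxic stress induces many of these genes through the transcription factor HSF1, which binds repeats of the unit GAA in alternating orientation, whereas Hspa5, the chaperone of the endoplasmic reticulum, is induced by the unfolded protein response through elements that contain CCAAT.

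The promoters of the 10 genes were read to show which of them carry GAA repeats, because the question was whether the small heat shock proteins and the inducible Hsp70 and Hsp40 genes move together. RefSeq promoters of the rat assembly GRCr8 were at hand for 8 of the 10 genes and cover the 250 bases before the start site. Cryab and Hsp90aa1 had no entry. A pair of units, GAANNTTC or TTCNNGAA on either strand, was found in the promoters of Hspb1, Hspb6, Bag3, Dnajb1, Hsph1 and Hspa8, and in 4534 of 33469 RefSeq promoters (13.5%). The longer GAANNTTCNNGAA or TTCNNGAANNTTC was found in Hsph1 and Hspa8, and in 222 of 33469 promoters (0.663%). The pair matches are counted also inside the longer ones. In the following lines, the stretches with matches are printed 5′ to 3′ on the gene's strand with the matched bases in capitals. The last 60 bases before the start site are printed for Hspb7 and Hspa5, which held no match.
Hspb1: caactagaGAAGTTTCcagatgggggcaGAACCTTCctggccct
Hspb6: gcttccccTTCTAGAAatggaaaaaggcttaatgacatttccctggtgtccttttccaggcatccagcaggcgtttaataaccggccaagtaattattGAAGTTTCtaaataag
Bag3: tgggaccaGAAGTTTCtagccggc
Dnajb1: gaggggcgGAAGGTTCtgg
Hsph1: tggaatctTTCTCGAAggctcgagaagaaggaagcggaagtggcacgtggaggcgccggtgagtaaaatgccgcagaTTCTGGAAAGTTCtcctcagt
Hspa8: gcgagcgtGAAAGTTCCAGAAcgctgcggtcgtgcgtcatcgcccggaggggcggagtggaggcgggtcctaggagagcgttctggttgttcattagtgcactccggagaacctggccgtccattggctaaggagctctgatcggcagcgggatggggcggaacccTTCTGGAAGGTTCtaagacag
Hspb7: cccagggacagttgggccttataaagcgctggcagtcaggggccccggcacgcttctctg
Hspa5: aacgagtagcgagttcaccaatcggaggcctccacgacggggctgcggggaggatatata
The stretch of Hspb1 lies at chr12:26432395-26432438 on the minus strand, that of Hspb6 at chr1:94934125-94934238 on the plus strand and that of Bag3 at chr1:192533320-192533343 on the plus strand. The stretch of Dnajb1 lies at chr19:41431142-41431160 on the minus strand, that of Hsph1 at chr12:10427255-10427352 on the plus strand and that of Hspa8 at chr8:50080293-50080479 on the plus strand. Hspb7 is shown at chr5:159010699-159010758 on the plus strand and Hspa5 at chr3:38452956-38453015 on the plus strand. The Hspb1 promoter held 2 pair matches, Hspb6 2, Bag3 1, Dnajb1 1, Hsph1 3 and Hspa8 4. The longer motif was found 1 time in Hsph1 and 2 times in Hspa8. The Hspa5 promoter held CCAAT or ATTGG 4 times, a motif with at least 1 match in 11385 of 33469 promoters (34.0%). The same search held no pair match for Hspa1a, a stress-inducible Hsp70 gene, or for Hsp90ab1, and 1 for Hspb8. The lack of a match in these 250 bases does not show that a gene is without GAA repeats. These are matches of letters only, and binding was not measured here.

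The 10 genes differed far more from each other than any of them differed between conditions. On the FPKM scale, which corrects for gene length and library size, Cryab (alpha B-crystallin) had a mean level of 4540 over the 99 libraries and ranked 16th among all genes by mean level. Hspb6 (Hsp20), a small heat shock protein of muscle, followed at 1960 FPKM and Hspb7 (cvHSP), a cardiovascular one that associates with actin, at 1270 FPKM. Hspb1 (Hsp27), which protects actin filaments, had 408 FPKM. The small heat shock protein genes were thus the 4 highest of the 10. Hspa5 (BiP) had 215 FPKM, Bag3 172 FPKM and Hspa8, the constitutive cytosolic Hsc70, 99.5 FPKM. Hsph1 (Hsp105, an Hsp110) had 26.7 FPKM and Dnajb1, the Hsp40 partner of cytosolic Hsp70, 18.5 FPKM. Hsp90aa1, the inducible cytosolic Hsp90, was listed at 0.373 FPKM, with 9 to 85 counts per library. Whether the authors' gene model takes in most reads of Hsp90aa1 was not tested, so its level, its rank and its differences may not stand for the whole transcript. Neighbours in this order kept it in 99 of 99 libraries, except that Hspa5 was above Bag3 in 94 and Hsph1 above Dnajb1 in 97.

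The stress-inducible Hsp70 genes stood low beside them, with a median of 3.85 FPKM for Hspa1a and 0.318 FPKM for Hspa1b, near-identical copies between which reads cannot be assigned with certainty. The constitutive Hsp90ab1 had a median of 677 FPKM, the BAG3 partner Hspb8 288 FPKM, the endoplasmic reticulum Hsp90b1 115 FPKM and Hsf1 14.8 FPKM. Hspa8 and Hsp90aa1 have processed copies elsewhere in mammalian genomes, so their counts depend on how reads with several positions were handled. In RefSeq, Hspb6 overlaps Lin37, Cryab overlaps Hspb2, Hspa8 overlaps snoRNA genes and Hsp90aa1 overlaps a long noncoding RNA gene. The authors left out reads that overlap several genes, and whether strand was used in counting is not given in the sources used here. How many reads of these genes were lost in the overlaps is therefore not known.

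Across the 21 groups, Bag3 varied least of the 9 genes with at least 10 FPKM. Its group means ran from 151 to 191 FPKM, and the highest was 1.26 times the lowest. The corresponding ratio was 1.79 for Hspb1, 1.61 for Hspb6, 1.57 for Hspb7, 1.54 for Hspa5, 1.51 for Hspa8, 1.47 for Dnajb1, 1.46 for Hsph1 and 1.40 for Cryab. Over all 5304 genes with a mean of at least 10 FPKM, the median of this ratio was 1.37, with quartiles of 1.26 and 1.57. Hspb1 and Hspb6 were therefore above the upper quartile and Bag3 was at the lower one.

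**Figure D1:**
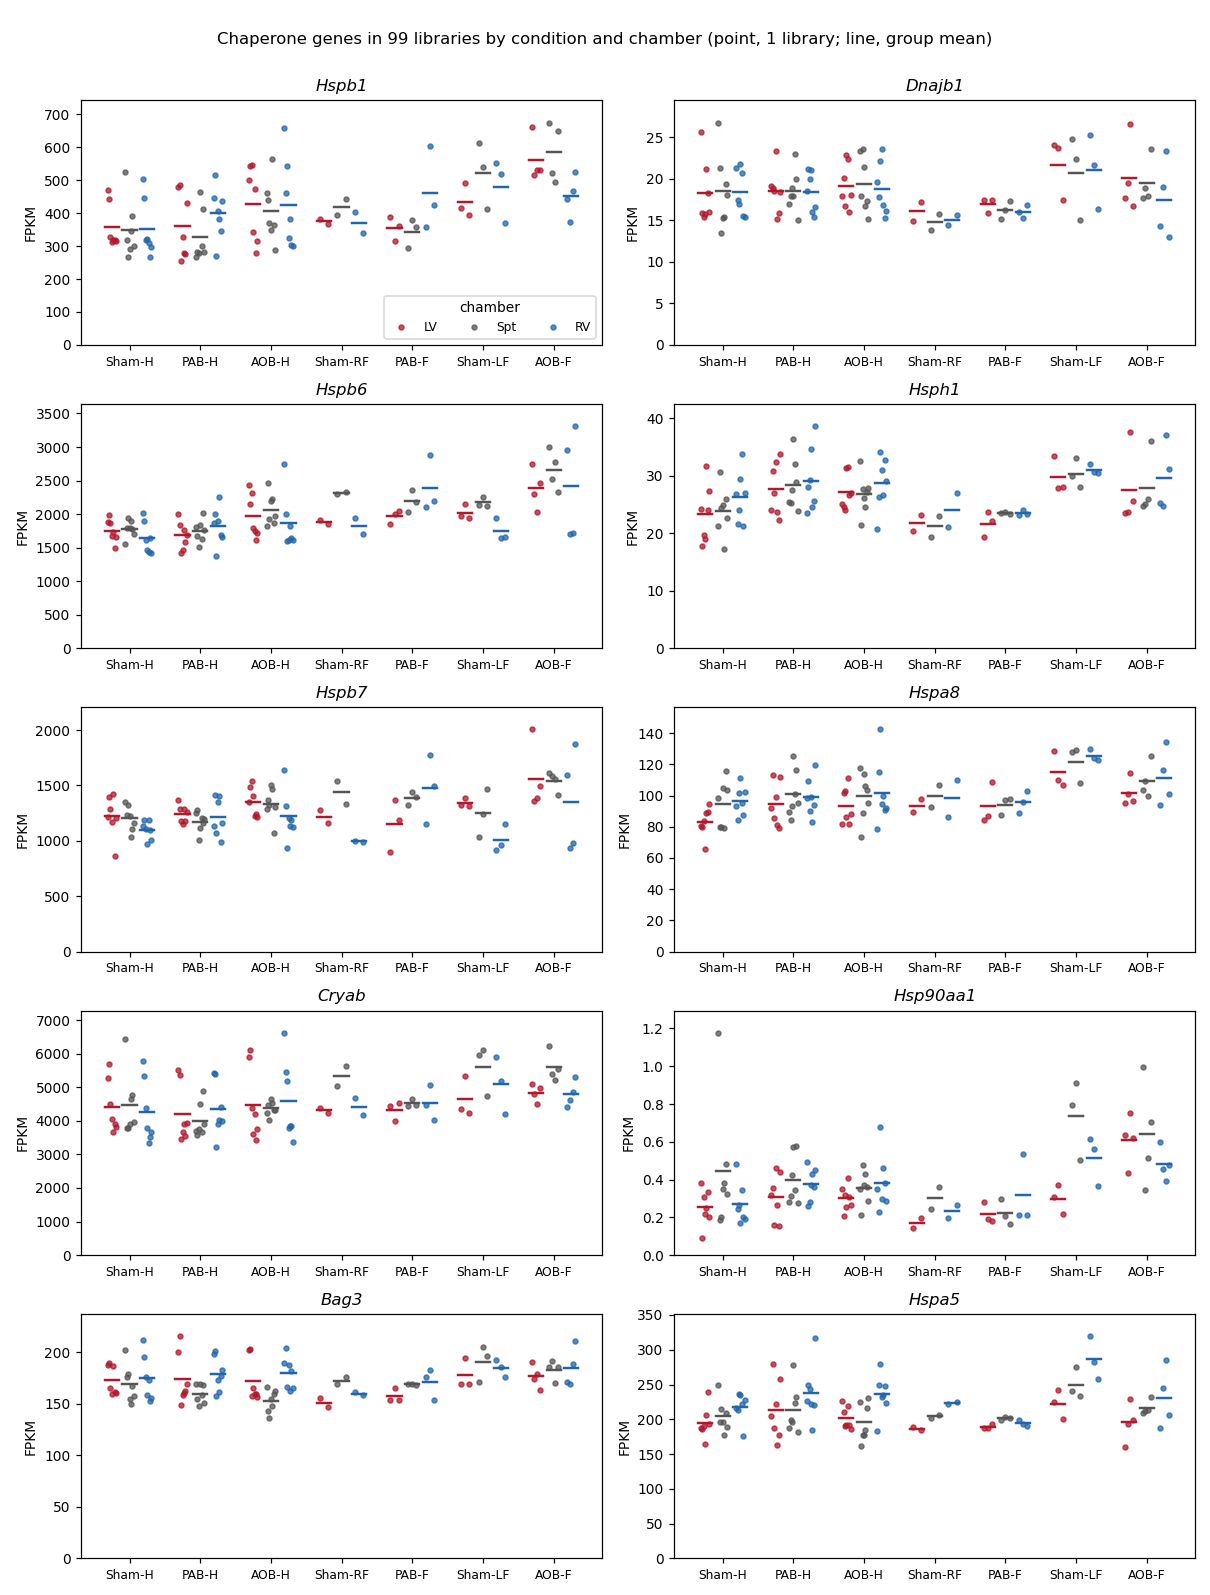
Deposited FPKM of each of the 10 genes, 1 panel a gene on its own linear axis from 0, by condition and chamber; each point is 1 library and each line a group mean. The points of Bag3 stay in a narrow band, with group means of 151 to 191 FPKM, while Hspb6 and Hspb7 reach their highest libraries in the RV and LV of AOB-F.

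Libraries held 12057180 to 24197244 counts, with a median of 17391374. Ventricular markers were high in the libraries (median 13200 FPKM for Myl2 and 17500 FPKM for Tnnt2), and the atrial light chain Myl7 had a median of 18.0 FPKM but reached 1960 FPKM. In tissue, fewer cells of a type and less RNA per cell cannot be told apart. Library numbers in the labels fell into 3 series: LV and RV libraries of the failure stage were all of the second series, their Spt libraries all of the third, and hypertrophy libraries were spread over 3 series in LV and RV and over 2 in Spt. The labels conflicted in places, where titles were followed, and 3 animals (Sham-H replicate 6, PAB-H replicate 2 and AOB-H replicate 1) had a profile of LV against RV differences opposite to the others. Within a chamber the p-values are over animals, of which the failure groups held only 2 to 4. Comparisons between chambers, and the differences between ventricles, come from a fit without an animal term. That fit takes the libraries of 1 animal as independent, except where the animal is named as a block.

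In failure after aortic banding, no member changed by the test across all genes in any chamber, and the values of several members lay on opposite sides of 0. In the comparison of AOB-F with Sham-LF, Hspb6 and Hspb7 had log2 fold changes above 0.2 in all 3 chambers, while Hspa5, Hspa8, Hsph1 and Dnajb1 had values below 0 in all 3 (edgeR quasi-likelihood test, Benjamini-Hochberg adjustment, 0 of 10 members at an adjusted p under 0.05 in each chamber). Of all genes tested, 0.837% passed in the LV, 0.232% in the Spt and 0% in the RV. Hspa5, Hspa8, Hsph1 and Dnajb1 also differed between the older sham groups. Their LV means were 195, 102, 27.6 and 20.1 FPKM in AOB-F and 222, 115, 29.8 and 21.7 FPKM in Sham-LF. In the younger Sham-RF they were 187, 93.5, 21.7 and 16.1 FPKM, below those of AOB-F.

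Among the small heat shock proteins, Hspb6 in the septum was measured at 2324, 2529, 2775 and 2999 FPKM in AOB-F and at 2126, 2138 and 2262 FPKM in Sham-LF. All AOB-F libraries lay above all shams. The log2 fold change was 0.27 (SE 0.11; edgeR adjusted p = 0.31). In the LV, the 4 AOB-F libraries had 2025, 2296, 2466 and 2752 FPKM against 1941, 1965 and 2153 FPKM. The lowest AOB-F library lay within the sham range, and the log2 fold change was 0.24 (SE 0.14; edgeR adjusted p = 0.491). In the RV, AOB-F libraries had 1698, 1717, 2958 and 3312 FPKM against 1642, 1662 and 1943 FPKM. They were split: replicates 1 and 4 were far above the shams, and replicates 2 and 3 were among them. The log2 fold change was 0.48 (SE 0.21; edgeR adjusted p = 0.366).

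Hspb7 was split by the same animals in the RV, where replicates 1 and 4 of AOB-F had 1592 and 1874 FPKM and replicates 2 and 3 had 939 and 980 FPKM, against 914, 962 and 1152.1 FPKM in Sham-LF (log2 fold change 0.42, SE 0.19; edgeR adjusted p = 0.367). The RV level of Nppa, the atrial natriuretic peptide gene, was 7320 and 10400 FPKM in replicates 1 and 4 and 1690 and 119 FPKM in replicates 2 and 3. Nppa marks ventricular load but is also a gene of atrial tissue. In the RV of Sham-LF it was at 95.2, 121 and 1500 FPKM. The 3 atrial markers of the RV libraries summed to 44.2 to 1510 FPKM in AOB-F and to 158 to 1850 FPKM in Sham-LF. Load and atrial tissue in a piece were not told apart, and the part of either in the result was not tested. In the septum, Hspb7 had 1414, 1562, 1586 and 1610 FPKM in AOB-F and 1032.04, 1245 and 1465 FPKM in Sham-LF, with 3 of the 4 libraries above all shams (log2 fold change 0.29, SE 0.12; edgeR adjusted p = 0.293). In the LV it had 1358, 1388, 1499 and 2005 FPKM against 1318, 1321 and 1383 FPKM, and the groups overlapped (log2 fold change 0.22, SE 0.14; edgeR adjusted p = 0.595).

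Hspb1 in the LV was at 516, 530, 532 and 662 FPKM in AOB-F and at 395, 417 and 492 FPKM in Sham-LF. The groups did not overlap, and the log2 fold change was 0.37 (SE 0.23, 95% interval -0.10 to 0.84; edgeR adjusted p = 0.567). Its log2 fold change was 0.15 in the septum and -0.07 in the RV, where the groups overlapped. The difference between ventricles was 0.45 (95% interval -0.22 to 1.12; edgeR adjusted p = 0.926). Cryab stayed within its spread in each chamber, at 4840 ± 266 (SD, n = 4) against 4640 ± 615 FPKM (n = 3) in the LV, 5600 ± 446 against 5590 ± 753 FPKM in the septum and 4800 ± 390 against 5090 ± 850 FPKM in the RV. Its log2 fold changes were 0.07, -0.02 and -0.08.

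Bag3 had values near 0 in each chamber. In the LV it was at 164, 174, 179 and 190 FPKM in AOB-F and at 169, 170 and 194 FPKM in Sham-LF. The groups overlapped almost completely, and the log2 fold change was -0.00 (95% interval -0.24 to 0.23; edgeR adjusted p = 0.999). In the septum the log2 fold change was -0.08 (95% interval -0.25 to 0.10) and in the RV 0.01 (95% interval -0.21 to 0.23).

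Among the Hsp70 and Hsp40 genes, Hspa5 in the septum was at 209, 213, 214 and 232 FPKM in AOB-F and at 233, 241 and 275 FPKM in Sham-LF. All AOB-F libraries lay below all shams, the highest of them by little (log2 fold change -0.22, SE 0.12; edgeR adjusted p = 0.485). In the RV it was at 188, 206, 245 and 285 FPKM against 258, 283 and 319 FPKM, with 3 of the 4 libraries below all shams (log2 fold change -0.30, SE 0.14; edgeR adjusted p = 0.373). Hspa8 had log2 fold changes of -0.17 in the LV, -0.17 in the septum and -0.16 in the RV, with adjusted p of 0.72, 0.695 and 0.594 by edgeR. In the LV its 4 libraries were at 95.3, 96.3, 101 and 115 FPKM against 107, 110 and 128 FPKM, so 3 of them lay below all shams.

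Dnajb1 and Hsph1 showed wide groups, with 1 AOB-F animal above the others. Dnajb1 in the LV was at 16.7, 17.7, 19.5 and 26.6 FPKM against 17.4, 23.7 and 24.1 FPKM (log2 fold change -0.11, SE 0.17). Hsph1 in the LV was at 23.5, 23.7, 25.5 and 37.6 FPKM against 27.9, 28.0 and 33.4 FPKM (log2 fold change -0.11, SE 0.17). The highest AOB-F library of both genes was replicate 3 in the LV and the RV, and replicate 4 in the septum. By Nppa, too, the LV had its lowest AOB-F level in replicate 3 (2640 FPKM) and a high one in replicate 4 (19500 FPKM), whereas the septum had 13800 FPKM in replicate 3 and 2230 FPKM in replicate 4. The comparisons between groups do not depend on which of the animals these septum libraries came from.

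Hsp90aa1 gave the largest difference of the 10 genes at failure. In the LV it was at 0.435, 0.621, 0.636 and 0.755 FPKM in AOB-F and at 0.219, 0.307 and 0.371 FPKM in Sham-LF. The groups did not overlap, and the log2 fold change was 1.04 (SE 0.35, 95% interval 0.32 to 1.76; edgeR adjusted p = 0.156). In the septum and the RV the values were -0.22 and -0.08, and the difference of the LV from the RV was 1.12 (95% interval 0.02 to 2.22; edgeR adjusted p = 0.926). With at most 85 counts in a library this gene is the least precisely measured of the 10.

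Members whose groups did not overlap were few and at the background of all genes. In the LV they were Hspb1 and Hsp90aa1, where 11.9% of all genes tested did not overlap. In the septum they were Hspb6 and Hspa5 (9.89% of all genes) and in the RV there were 0 (10.0% of all genes). The RV markers of cardiomyocytes summed to 29500 to 40100 FPKM in AOB-F and to 36400 to 45200 FPKM in Sham-LF, with all 5 markers detected. In the LV, the 5 fibroblast markers summed to 1330 to 1590 FPKM in AOB-F and had a median of 1210 and a highest sum of 1230 FPKM in Sham-LF, without overlap, and the 4 macrophage markers to 170 to 303 and 153 to 177 FPKM. None of these markers was at 0. Cardiomyocyte markers there summed to 26700 to 31800 and 29900 to 39700 FPKM. Their part in the members' values was not tested.

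**Figure D2:**
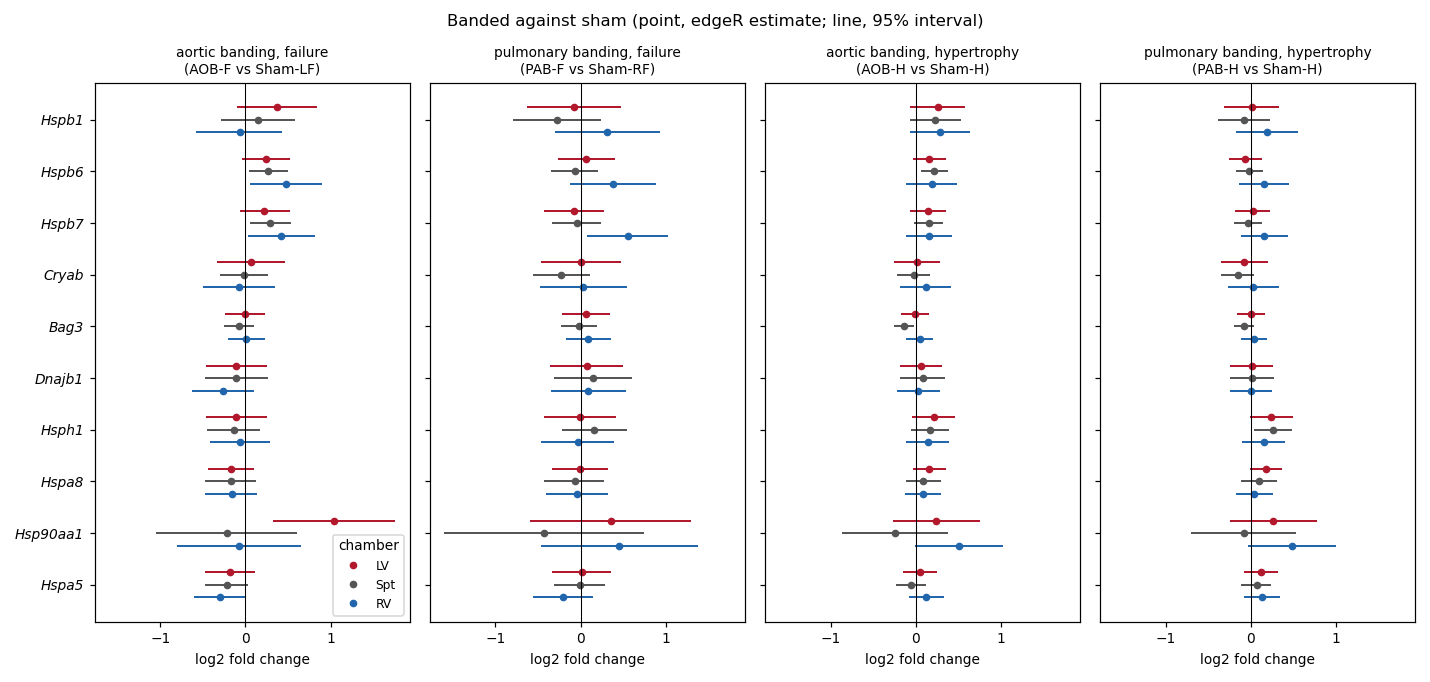
Log2 fold changes with 95% intervals of the 10 genes in banded against sham animals, by chamber, for failure and hypertrophy (edgeR). In AOB-F against Sham-LF the small heat shock proteins Hspb6 and Hspb7 lie above 0 in each chamber. Hspa5, Hspa8, Hsph1 and Dnajb1 lie below 0 there, and no value passed the adjusted threshold.

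In failure after pulmonary artery banding, Hspb6 and Hspb7 were higher in the loaded RV than in Sham-RF, without passing the test (edgeR, 0 of 10 members and 0% of all genes at an adjusted p under 0.05 in each chamber). Hspb7 in the RV was at 1152.96, 1492 and 1777 FPKM in PAB-F and at 992 and 1003 FPKM in Sham-RF. All 3 libraries lay above both shams, and the log2 fold change was 0.56 (SE 0.23, 95% interval 0.08 to 1.03; edgeR adjusted p = 0.543). In the LV of the same animals it was at 900, 1189 and 1372 FPKM against 1157.3 and 1276 FPKM, and the groups overlapped. The difference of the RV from the LV was 0.65 (95% interval 0.13 to 1.16; edgeR adjusted p = 0.988).

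Hspb6 in the RV was at 2101, 2191 and 2875 FPKM in PAB-F against 1700 and 1950 FPKM, again without overlap (log2 fold change 0.38, SE 0.25; edgeR adjusted p = 0.685). Hspa5 went the other way, at 191, 194 and 199 FPKM against 222 and 226 FPKM (log2 fold change -0.21, SE 0.17; edgeR adjusted p = 0.745). These 3 members did not overlap in the RV, where 35.5% of all genes tested did not, in a comparison of 3 with 2 animals. The Nppa level of the PAB-F RV libraries was 350, 6490 and 6940 FPKM, and the highest Hspb6 and Hspb7 values were in replicate 2, which had 6940 FPKM of Nppa. The 3 atrial markers of these libraries summed to 29.3 to 3350 FPKM, against 26.8 to 89.8 FPKM in Sham-RF. Other marker sums stood apart in the RV. The smooth muscle sum (5 markers) was 1130 to 1740 against 967 to 1120 FPKM. It was mostly desmin (Des), with a median of 1270 FPKM over the 99 libraries. The other smooth muscle markers had medians of 1.59 to 51.9 FPKM. Desmin also belongs to cardiomyocytes, so this sum does not stand for smooth muscle alone. The cardiomyocyte sum (5 markers) was 30400 to 36100 against 36900 to 37600 FPKM. The 7 immediate early genes, which respond to tissue handling, summed to 113 to 143 against 173 to 266 FPKM. The immediate early genes were also lower in PAB-F without overlap in the LV (133 to 147 against 195 to 240 FPKM) and the septum (101 to 143 against 181 to 227 FPKM). No marker of these lists was at 0 in these libraries, and the part of any of them in the results was not tested.

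In the septum of PAB-F, Hspb1 and Cryab were lower and Hsph1 higher than in both Sham-RF animals. Hspb1 was at 296, 357 and 378 FPKM against 395 and 442 FPKM, and Cryab at 4438, 4478 and 4648 FPKM against 5034 and 5623 FPKM. Hsph1 was at 23.3, 23.6 and 23.6 FPKM against 19.4 and 23.0 FPKM. In this comparison 42.8% of all genes did not overlap, and the log2 fold changes of -0.28, -0.23 and 0.16 had edgeR adjusted p of 0.818, 0.816 and 0.831. Bag3 was again near 0, with log2 fold changes of 0.06 in the LV, -0.02 in the septum and 0.09 in the RV. Dnajb1 had 0.07, 0.15 and 0.09, with 95% intervals that spanned 0.

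At the hypertrophy stage, with 7 animals a group, the groups overlapped for all 10 genes. No member and no gene passed in PAB-H or AOB-H in any chamber (0%). Hspb6 in the septum ran from 1820 to 2470 FPKM in AOB-H, with a median of 1970 FPKM, and from 1550 to 1940 FPKM in Sham-H, with a median of 1790 FPKM. The AOB-H group lay higher with some overlap, and the log2 fold change was 0.22 (SE 0.08; edgeR adjusted p = 0.235). Bag3 in the same chamber ran from 137 to 166 FPKM, with a median of 154 FPKM, against 150 to 202 FPKM, with a median of 168 FPKM. It was the comparison in which Bag3 differed most, with a log2 fold change of -0.14 (SE 0.06; edgeR adjusted p = 0.266).

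Hsph1 in the septum of PAB-H ran from 23.8 to 36.5 FPKM, with a median of 27.4 FPKM, against 17.3 to 30.6 FPKM in Sham-H, with a median of 24.4 FPKM (log2 fold change 0.26, SE 0.11; edgeR adjusted p = 0.79). Both bandings gave Hsph1 values above 0 in each chamber, from 0.14 to 0.26. The PAB-H and AOB-H comparisons share their Sham-H animals, so the values are not independent. Hspb1 had log2 fold changes of 0.26, 0.23 and 0.28 in the LV, septum and RV of AOB-H, against 0.01, -0.08 and 0.19 in PAB-H. Cryab was between -0.15 and 0.12 throughout. The largest values of this stage were those of Hsp90aa1 in the RV. It ran from 0.168 to 0.482 FPKM in Sham-H (median 0.244), from 0.261 to 0.492 FPKM in PAB-H (median 0.369) and from 0.227 to 0.679 FPKM in AOB-H (median 0.349). Both banded groups lay higher with wide overlap, and the log2 fold changes were 0.48 in PAB-H (95% interval -0.03 to 1.00) and 0.51 in AOB-H (95% interval -0.01 to 1.02), each with an edgeR adjusted p of 1.0. In the LV they were 0.26 and 0.24, and in the septum -0.08 and -0.24.

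Over the 12 comparisons with sham, the members gave 120 tests, of which 10 had an unadjusted p under 0.05, with 8 of the 10 higher in the banded animals. Among all genes the corresponding share was 6.92%. DESeq2 called no member either: over the 20 comparisons of banding, stage and ventricle, both edgeR and DESeq2 had 14 of 200 tests at an unadjusted p under 0.05 and 0 at an adjusted p under 0.05, with lowest adjusted p of 0.156 and 0.0994. For 2 of the DESeq2 tests no adjusted p was given. The difference between stages, that is the change in failure minus the change in hypertrophy, and the difference between ventricles gave 80 tests, with 4 at an unadjusted p under 0.05 against 3.53% of all genes, and 0 at an adjusted p under 0.05 against 0% of all genes. The 4 were Hspa8 after aortic banding in the LV (-0.33, edgeR adjusted p = 0.651), Hspa5 after aortic banding in the RV (-0.43, edgeR adjusted p = 0.74), and the ventricle differences of Hsp90aa1 and Hspb7 given above. For Hspa8 and Hspa5, the values after aortic banding were above 0 in the LV and RV at the hypertrophy stage and below 0 at failure.

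Of 5 lists of related chaperone genes, none held a gene that passed in any comparison of banding with sham. In the LV of AOB-F the median log2 fold change was 0.22 over the 3 other small heat shock protein genes tested (of 5), -0.09 over 32 cytosolic Hsp70, Hsp90, Hsp40 and Hsp110 genes (of 32) and -0.02 over 11 genes of the BAG family and chaperone-assisted autophagy (of 12). It was -0.02 over 24 genes of endoplasmic reticulum chaperones and the unfolded protein response (of 24) and -0.25 over 7 mitochondrial chaperone genes (of 8), of which 0 had a value above 0. The median of all genes was 0.01. At an unadjusted p under 0.05 there were 2, 4, 0, 0 and 3 genes of these lists, against 12.7% of all genes in the LV of AOB-F. In the RV of PAB-F the medians were 0.11, 0.10, 0.14, 0.01 and 0.09, against 0.00 for all genes. Of the partners, Hspb8 had a log2 fold change of 0.22 in the LV (edgeR adjusted p = 0.306) and 0.23 in the septum (edgeR adjusted p = 0.345) of AOB-F. It had 0.45 in the RV of PAB-F (edgeR unadjusted p = 0.00375, adjusted p = 0.524). Its value was above 0 in every comparison of banding with sham, the lowest being 0.05 in the LV of PAB-F. Some of these comparisons share sham animals, and in none did Hspb8 pass. Hspa1a, the inducible Hsp70, had -0.73 in the septum of AOB-F (edgeR adjusted p = 0.404) and Hsp90ab1 had -0.06, -0.04 and -0.07 in LV, septum and RV of AOB-F.

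Between chambers of sham hearts, Hspb7 was lower and Hspa5 higher in the RV than in the LV. Over the 12 sham animals Hspb7 ran from 867 to 1425 FPKM in the LV (median 1282), from 1032.04 to 1542 FPKM in the septum (median 1241) and from 914 to 1193 FPKM in the RV (median 1052.1). It was lower in the RV than in the LV in 11 of the 12 animals, with a log2 difference of -0.24 (edgeR adjusted p = 0.043), and higher in the septum than in the RV in 11 of 12, with 0.24 (edgeR adjusted p = 0.049). Hspa5 ran from 165 to 241 FPKM in the LV (median 192), from 178 to 275 FPKM in the septum (median 207) and from 175 to 319 FPKM in the RV (median 226). It was higher in the RV than in the LV in 11 of 12 animals, with 0.23 (edgeR adjusted p = 0.038). The ranges overlapped for both genes. Each of these calls was close to the threshold: with 1 of the 12 animals left out in turn, Hspb7 in RV against LV passed in 2 of 12 fits (without Sham-LF replicate 3 and without Sham-H replicate 6) and Hspa5 in 3 of 12 (without Sham-LF replicate 2, Sham-H replicate 5 and Sham-H replicate 6), and Hspb7 in septum against RV in 1 of 12 (without Sham-H replicate 6). The edgeR adjusted p ranged from 0.0132 to 0.108, from 0.00535 to 0.116 and from 0.0436 to 0.134 over these fits, and the log2 differences from -0.28 to -0.23, from 0.19 to 0.29 and from 0.23 to 0.27.

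Hsp90aa1 was higher in the septum (0.188 to 1.18 FPKM, median 0.370) than in the LV (0.0927 to 0.382 FPKM, median 0.235) in 9 of 12 animals, with 0.90 (edgeR adjusted p = 0.010). Its call was lost without the Sham-H animal whose septum library had 1.18 FPKM (0.65, edgeR adjusted p = 0.0799). These comparisons called 4 of 30 member tests in all. Of all genes, 10.2% passed for RV against LV, 2.32% for septum against LV and 8.06% for septum against RV. At an unadjusted p under 0.05 there were 7 of 30 member tests, 6 of them higher, against 20.5% of all genes.

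With the animal as a block, 16.6%, 4.49% and 12.9% of all genes passed for RV against LV, septum against LV and septum against RV, and the 4 member calls were kept. The block added Hspa8 in RV against LV (0.16, edgeR adjusted p = 0.0329, higher in the RV in 10 of 12 animals), where it ran from 84.0 to 130 FPKM in the RV and from 65.5 to 128 FPKM in the LV. It also added Hspb6 (0.21, edgeR adjusted p = 0.0191, 11 of 12 animals) and Hsp90aa1 (0.56, edgeR adjusted p = 0.0451) in septum against RV. Hspb6 ran from 1550 to 2332 FPKM in the septum and from 1428 to 2024 FPKM in the RV. Leaving out the 3 animals with opposite LV and RV profiles gave -0.27 for Hspb7 (edgeR adjusted p = 0.0144) and 0.29 for Hspa5 (edgeR adjusted p = 0.00187). These animals were set apart by their LV against RV differences, so this fit is no independent check. Only 1 of them, Sham-H replicate 6, is a sham, and the fit without that animal is among those above. Among the other chaperone genes, Hsf2 (0.29), Lamp2 (0.17) and Dnajc3 (0.19) passed in RV against LV and Dnajb5 (0.30), Hspa12b (0.31) and Xbp1 (-0.21) in septum against RV. They are named after their values were seen.

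**Figure D3:**
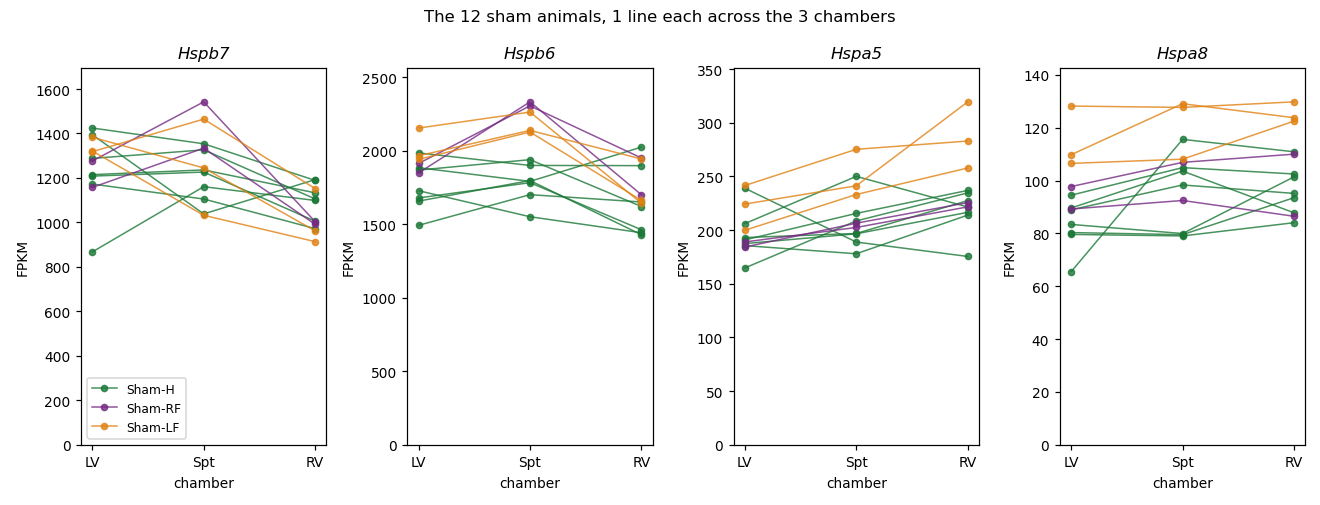
FPKM of Hspb7, Hspb6, Hspa5 and Hspa8 (linear axes from 0) in LV, septum and RV of the 12 sham animals, with 1 line an animal coloured by sham group. Hspb7 is lower and Hspa5 higher in the RV than in the LV in 11 of the 12 animals.

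Between sham animals of both ages, Hspb6 in the septum was the 1 member called in the main fit. The 5 older shams (Sham-RF and Sham-LF) had 2126 to 2332 FPKM, with a mean of 2232 ± 95 (SD, n = 5), and the 7 young ones (Sham-H) had 1550 to 1938 FPKM, with a mean of 1780 ± 128 (SD, n = 7). The groups did not overlap, as for 1.02% of all genes tested. The log2 fold change was 0.33 (SE 0.09, 95% interval 0.15 to 0.50; edgeR adjusted p = 0.0488), and 1.18% of all genes passed in the septum, 0.0171% in the LV and 0.0937% in the RV. The call did not hold with the library series in the model (edgeR adjusted p = 0.0869), within 1 library series (0.30, edgeR adjusted p = 0.065) or with the replicate number as a block (0.24, edgeR adjusted p = 0.199). With 1 of the 12 animals left out in turn it held in 3 fits, without Sham-H replicate 2, Sham-H replicate 5 or Sham-LF replicate 3, and was lost in the other 9, with log2 fold changes of 0.30 to 0.35 and adjusted p of 0.0232 to 0.186 by edgeR. In these shams age went with time since surgery.

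The other septum values were 0.46 for Hspb1 (edgeR adjusted p = 0.133), 0.30 for Cryab (edgeR adjusted p = 0.134) and 0.26 for Hspa8 (edgeR adjusted p = 0.217), and none passed adjustment in the main fit. With 1 of the 12 animals left out in turn, Hspb1 and Cryab each passed in 2 fits, with lowest edgeR adjusted p of 0.0266 and 0.00993. Cryab passed in 1 of 7 other settings too. Hspa8 was also higher in older shams in the LV (0.35, edgeR adjusted p = 0.319) and the RV (0.24, edgeR adjusted p = 0.412), and Hspa5 in the RV (0.26, edgeR adjusted p = 0.377). In all, 7 of 30 member tests had an unadjusted p under 0.05, each of them higher in older shams, against 12.3% of all genes.

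The older sham groups differed in the level of several members. Hsph1, Hspa8, Hsp90aa1 and Hspa5 were higher in each Sham-LF library than in each Sham-RF library in all 3 chambers, and Dnajb1 and Bag3 in the LV and the RV. The ratio of means was 1.37, 1.43 and 1.29 for Hsph1 and 1.23, 1.22 and 1.28 for Hspa8 in LV, septum and RV, and 1.35 and 1.40 for Dnajb1 in LV and RV. Hspb6, Hspb7 and Hspb1 were higher in this way in the LV alone. This made 9 of the 10 members in the LV, 4 in the septum and 6 in the RV, where each Sham-LF library was above each Sham-RF library for 12.2%, 9.16% and 9.25% of all genes. These are descriptions of 3 against 2 animals, with no test. Immediate early genes, which respond to tissue handling, went in the opposite direction, with summed levels of 195 to 240 FPKM in the LV of Sham-RF and 134 to 152 FPKM in that of Sham-LF, 181 to 227 and 133 to 184 FPKM in the septum, and 173 to 266 and 120 to 132 FPKM in the RV. Their part in the difference was not tested. PAB-F and AOB-F were each compared with only 1 of these sham groups.

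Across animals, several pairs of members varied together within conditions. For each chamber, the log2 CPM of 33 animals was centred on condition and library series, and each of the 45 pairs was tested by permutation within these strata (100000 permutations, two-sided; 135 tests in all). By both Pearson's r and Spearman's rho, 15 pairs passed after Benjamini-Hochberg adjustment, 7 in the LV, 4 in the septum and 4 in the RV. On the log2 FPKM scale, an alternative added after the data were seen, 11 passed, and 8 passed on both scales. How many pairs of other genes would pass was not computed. Neither these counts nor the values of r are therefore shown to be particular to chaperones.

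Hspb1 and Cryab were the 1 pair that passed in all 3 chambers on both scales. Pearson's r was 0.66 in the LV, 0.73 in the septum and 0.76 in the RV, and rho was 0.73, 0.81 and 0.74 (permutation test, adjusted p for r of 0.0072, 0.0027 and 0.0219). Without the 2 animals farthest from the median of Hspb1, r was 0.58, 0.80 and 0.73. Within the largest library series, r was 0.71 in the LV, 0.75 in the septum and 0.80 in the RV. In the series of 6 animals it was 0.13 and 0.75 in the LV (first and the third series), 0.97 and -0.84 in the RV (first and the third series) and 0.85 in the septum (second series). Hspb6 and Hspb7 had r of 0.83 in the RV (rho 0.73, adjusted permutation p for r of 0.0262), 0.57 in the LV and 0.52 in the septum. On the CPM scale the RV value passed. On the FPKM scale the LV value passed in its place (r 0.63, rho 0.61, adjusted permutation p of 0.0251 and 0.0488), and the RV value did not (r 0.82, rho 0.66, adjusted permutation p of 0.0312 and 0.068). Hspb6 and Cryab passed in the LV on the CPM scale (r 0.53, rho 0.57, adjusted permutation p of 0.0443 and 0.0439) and not on the FPKM scale. In the RV the same 2 AOB-F animals were high in both Hspb6 and Hspb7.

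Among the Hsp70 and Hsp40 genes, Dnajb1 and Hsph1 had r of 0.76 in the LV (adjusted permutation p = 0.0208), 0.43 in the septum and 0.46 in the RV. Hspa8 and Hspa5 had r of 0.76 in the RV (adjusted permutation p = 0.00891), 0.62 in the LV and 0.44 in the septum. Hsph1 went with Hspa8 in the RV (r 0.64) and with Hspa5 in the septum (r 0.62). Of the 6 pairs among Dnajb1, Hsph1, Hspa8 and Hspa5, all 6 had r above 0 in each chamber, with medians of 0.62 in the LV, 0.49 in the septum and 0.57 in the RV. Among the 4 small heat shock proteins the medians were 0.46, 0.18 and 0.50. Pairs between both sets had medians of -0.23, -0.04 and -0.13, and 3, 7 and 4 of the 16 were above 0. On the FPKM scale 7 of 16 were above 0 in each chamber. Hsp90aa1 and Bag3 were in neither set, so these counts and medians leave them out. With Dnajb1, Hsph1, Hspa8 and Hspa5, Hsp90aa1 had r of 0.54, 0.45, 0.35 and 0.56 in the LV. In the septum it had 0.33, -0.16, 0.31 and 0.12, and in the RV -0.11, 0.02, -0.05 and -0.19. With Hspb1, Hspb6, Hspb7 and Cryab it had 0.58, -0.0, -0.30 and 0.23 in the LV. In the septum these were 0.61, -0.32, -0.47 and 0.69, and in the RV 0.60, 0.40, 0.20 and 0.48.

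Pairs with r below 0 passed in the LV only on the CPM scale: Hspb6 with Dnajb1 (r -0.61), Cryab with Hsph1 (r -0.62) and Hspb7 with Hspa5 (r -0.53). On the FPKM scale their r was -0.58, -0.48 and -0.34, and these did not pass. Bag3 took part in no pair that passed on the CPM scale, and with Hspa5 in the septum it passed on the FPKM scale (r 0.74, adjusted permutation p = 0.00979). Hsp90aa1 went with Hspb1 (r 0.61) and with Cryab (r 0.69) in the septum, on both scales.

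**Figure D4:**
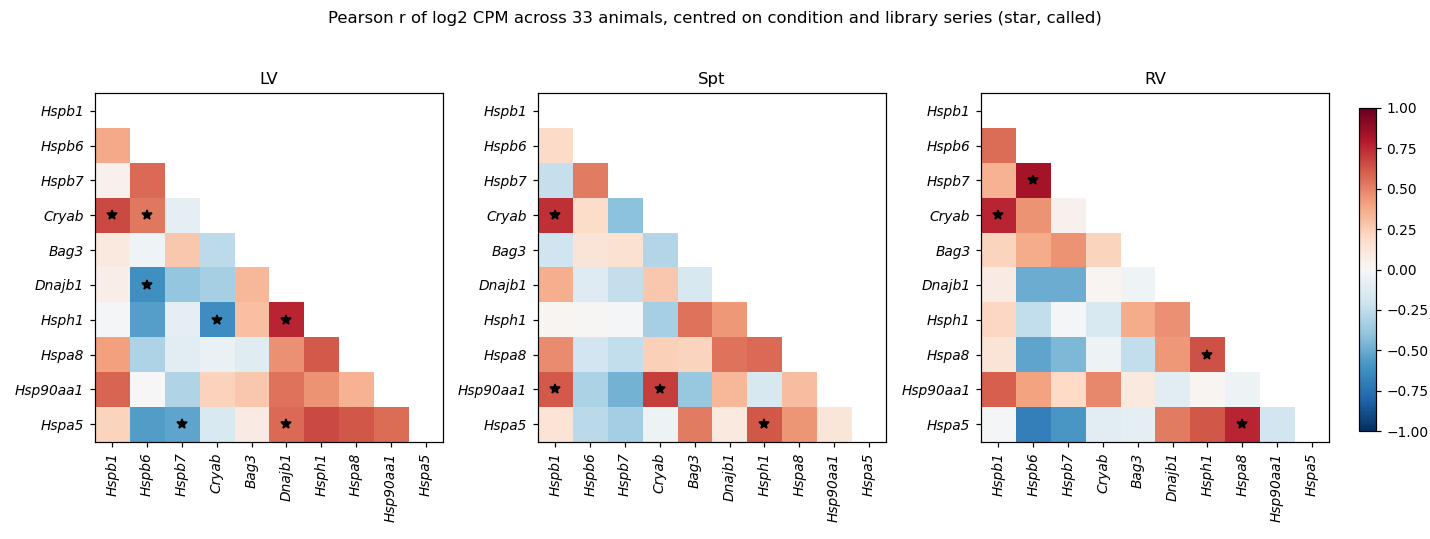
Pearson's r of log2 CPM across 33 animals for the 45 pairs of members in each chamber, after centring on condition and library series, as colour from -1 (blue) to 1 (red), with a star on pairs that passed. Pairs among the small heat shock proteins and pairs among Dnajb1, Hsph1, Hspa8 and Hspa5 are mostly above 0. Pairs between both sets have medians of -0.23, -0.04 and -0.13. Hsp90aa1 and Bag3 are in neither set.

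Over the 21 group means, the genes most like Bag3 among 8683 candidates with at least 5 CPM were Cdc5l (Pearson's r 0.80), Lsg1 (0.79) and Prkag3 (0.78). Those most like Dnajb1 were Serpinh1 (0.91), the collagen chaperone Hsp47, P4ha1 (0.89), a collagen prolyl hydroxylase, and Dnaja1 (0.86), another Hsp40. Those most like Cryab were Arpc5l (0.90), Adcy4 (0.87) and Plscr2 (0.87). The group means share library series and sham animals, and the values of r describe these 21 groups without a test.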

How the data were processed

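Poly(A)-selected RNA of LV, septum and RV tissue from 33 rats was sequenced. Per the study's methods, the authors trimmed single-end reads with Trim Galore, aligned them to Rnor6.0 with STAR, and made the deposited counts per gene with featureCounts, leaving out reads that overlap several genes. The deposited FPKM values equal the counts times a factor of each library and a constant of each gene (largest relative deviation 1.8e-13). The deposited DESeq2-normalized counts were not used. Reads with several positions and strand are handled in a way not given in the sources used here.

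Counts were tested with edgeR 4.0.16 (R 4.3.3): the quasi-likelihood test, TMM scaling, filterByExpr, and Benjamini-Hochberg adjustment over all genes tested, with a threshold of 0.05. Each chamber was fitted with its 7 conditions. Chambers and differences between ventricles were compared in a fit of all groups without an animal term. DESeq2 1.42.0 was an alternative. The others were RLE size factors, no filter, library series as a covariate or a single series, replicate or animal blocks, and leaving out each animal or the 3 animals named in the report. Pairs used log2(CPM + 0.1), with 100000 permutations (smallest possible p of 1e-05) and Python 3.11.15 with scipy 1.17.1. FPKM values were used for levels. The tests were checked on simulated counts. Totals of 12057180 to 24197244 counts set the precision, and 2218 of 17337 genes had no count.

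Groups came from sample titles. Animals link chambers by design. Replicate numbers across conditions were not taken as pairs of animals: in no comparison of banding with sham did every same-numbered pair have correlated deviations over 0.1. At the hypertrophy stage, single pairs reached 0.75 in the LV and 0.81 in the RV, where replicate numbers follow library series. The main fits hold no term for library series. The members and gene lists were chosen with earlier results of these data known. All 10 members are named throughout. Of the lists, genes called in a comparison with sham were to be named, and Hspa1a, Hspa1b, Hspb8, Hsp90ab1, Hsp90b1 and Hsf1 as partners. The genes most like a member are the 3 with the highest r over group means.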

Additional observations from a re-analysis of the deposited data

Results flagged for a closer look

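In 120 sets of 4 or 7 libraries, 1 set for each member and group of that size, the highest or lowest library stood apart from the rest in 7 (Dixon's test). Chance gives about 1 in 20 groups.

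At failure after aortic banding, Hspb1 was 662 FPKM in the LV of AOB-F replicate 1, against 516 to 532 FPKM in the other libraries. Hsph1 was 37.6 FPKM in the LV of AOB-F replicate 3, against 23.5 to 25.5 FPKM, and 36.1 FPKM in the septum of AOB-F replicate 4, against 24.7 to 25.9 FPKM. At the hypertrophy stage, Hspb6 was 2750 FPKM in the RV of AOB-H replicate 1, against 1600 to 2000 FPKM. This animal is 1 of the 3 with opposite LV and RV profiles, as is Sham-H replicate 6, whose RV library had the lowest Hspa5 level, 175 FPKM against 214 to 237 FPKM. The septum library of Sham-H replicate 5 was highest in both Cryab, at 6450 FPKM against 3790 to 4760 FPKM, and Hsp90aa1, at 1.18 FPKM against 0.188 to 0.481 FPKM. Without this animal, Hsp90aa1 no longer passed in septum against LV (0.65, edgeR adjusted p = 0.0799).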

How the results depend on the processing

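The count of members called was 0 in all 20 comparisons of banding, stage and ventricle under every setting run, DESeq2 included: 4340 tests gave 276 unadjusted p under 0.05 and a lowest adjusted p of 0.0829. Sham comparisons depended more on the setting. For older against young shams in the septum, the count of 1 became 0 without the filter, with library series as a covariate, with the replicate block and without the 3 animals named in the report, and ranged from 0 to 3 with 1 animal left out. For RV against LV, the count of 2 became 1 without the filter and ranged from 0 to 2 with 1 animal left out. For septum against LV, the count of 1 became 2 with library series as a covariate, and ranged from 0 to 1. For septum against RV, the count of 1 became 0 with RLE size factors and without the filter, and 3 with library series as a covariate and with the animal as replicate block, and ranged from 0 to 1. Of pairs, 27 passed when centred on condition alone and 4 without the 2 farthest animals, against 15. The cause of these shifts was not tested. The replicate block across conditions changed no other count. Signs of members' values changed in 348 of 5250 refits, but in 3 of 1487 where the log2 value was over 0.2 in size, each of Hsp90aa1: 0.45 in the RV of PAB-F became -0.13 without PAB-F replicate 2, and -0.24 in the septum of AOB-H became 0.18 within 1 library series and 0.17 without Sham-H replicate 5. With 2 to 4 animals a failure group, the lack of a call does not show a lack of change. The printed 95% intervals are not adjusted for the number of genes tested, so an interval that excludes 0 is not a call.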

Other observations

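Because Hspb6 and Hspb7 were high in the RV libraries with high Nppa, the relation of each member to Nppa was computed within condition and library series over 33 animals, for 30 relations in 3 chambers. This was chosen after the data were seen. How many other genes have such a relation to Nppa was not computed. Hspb6 in the septum was the 1 relation that passed on the CPM scale, with Pearson's r of 0.66 and Spearman's rho of 0.77 (permutation test, adjusted p of 0.0015 and 0.003). In the RV, where the pattern was seen, r was 0.63 for Hspb6 and 0.58 for Hspb7 (adjusted permutation p of 0.0861 for each) and neither passed. Nppa is also a gene of atrial tissue, and the part of atrial tissue in these relations was not tested. For Hspb6 in the septum without the 2 animals farthest from the median of Nppa, r was 0.68. On the FPKM scale its r was 0.68 (adjusted permutation p = 0.0165) and rho 0.66 (adjusted permutation p = 0.0624), so 0 relations passed by both measures.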
